A study of Mus musculus with 8 samples.

Results

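The 49 genes described here encode proteins that copy the chromosomes in S phase (17 genes) and that organise chromosomes, spindle and cell division in G2 and mitosis (32 genes, called G2/M). They were chosen by gene symbol, and all 49 were found among the 22597 genes of the deposited table. They were followed in interstitial macrophages, those of the lung tissue itself and not of the airways and alveoli, sorted from transplanted mice. The hosts were irradiated CD45.1/CD45.2 IMDTR mice, also labelled Cx3cr1-DTR, which carry the diphtheria toxin receptor. Whether the sort separated donor from remaining host cells is not stated in the labels. The hosts received bone marrow from Lyz2Cre Tgfbr2 fl/fl donors (Tgfbr2_KO, here KO, 4 libraries) or from Tgfbr2 fl/fl donors without Cre (WT, 4 libraries). Tgfbr2 encodes the type II receptor of TGF-β, and Lyz2Cre deletes the floxed part in myeloid cells. After 1 month every host was given 50 ng diphtheria toxin, and the macrophages were taken 10 days later from female C57BL/6 mice, for which the labels give 12 to 16 weeks in one field and 18 weeks in another. Both groups therefore share the floxed alleles, the irradiation, the transplant and the toxin, and only KO donors carried Cre, so that Cre and receptor loss cannot be told apart. The labels do not say whether the libraries came from separate mice, so the p-values reflect the variation among these libraries, part of which may be technical.

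As background, a cell that enters the cycle first switches on genes under E2F transcription factors, which supply the MCM helicase, nucleotides and the replication clamp. Later in the cycle a second wave of genes, bound by the DREAM complex in resting cells and by B-Myb and FoxM1 in dividing ones, supplies cyclins A and B, mitotic kinases, kinesins and the machinery of cytokinesis. TGF-β is a textbook brake on the G1 phase of many cell types. Macrophages that refill an emptied tissue niche come from incoming monocytes and can also divide in place.

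Every member was well above detection. The lowest count of any member in any library was 44, for Plk1 in WT 1 and for Ccne2 in KO 3 (2.24 CPM, exact Poisson 95% interval 1.63 to 3.01 CPM, counting error only), and all 49 passed the filter on low counts. Levels are CPM, the counts of a gene scaled to the library total and by TMM. Library totals were between 15597310 (WT 1) and 37654133 counts (WT 4), at which 3 counts are 0.0844 to 0.177 CPM. Tgfbr2 was at 424, 576, 529 and 539 CPM in KO 1 to 4, against 548, 474, 546 and 542 CPM in WT 1 to 4, which does not differ beyond the spread on the log2 scale (-0.03 ± 0.12, SE, with an edgeR adjusted p = 1.00). A count over the whole gene does not resolve the floxed part, so it does not check the labels. Lyz2, where Cre is inserted, was at 3440 to 5611 CPM in KO libraries, against 7285 to 13193 CPM in WT libraries, without overlap.

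The libraries fall into 2 sets that cut across genotype. In KO 1, WT 1 and WT 2, called lung-rich, 16 epithelial markers summed to 6276, 4023 and 3492 CPM, against 182 to 281 CPM in the other 5 libraries, and 16 endothelial markers to 5569, 3743 and 2855 CPM, against 292 to 375 CPM. Lymphocyte markers summed to 72.6 CPM in KO 1 and 55.4 and 41.5 CPM in WT 1 and WT 2, against 12.8 to 17.4 CPM in the other 5, where Cd3e was at 0 to 0.253 CPM. The 16 interstitial macrophage markers were lower in the lung-rich set, at 11143 CPM in KO 1 and 16186 and 17675 CPM in WT 1 and WT 2, against 24543 to 26657 CPM in the other 5. Among the other 5, alveolar macrophage markers summed to 163 to 192 CPM in KO 2 to 4 and 624 to 636 CPM in WT 3 and WT 4. That gap was made mostly by Chil3 (15.8 to 17.6 CPM against 348 and 347 CPM), which was also listed as a monocyte marker. Of 10 tested alveolar markers, 2 were called higher in KO there and 5 lower, beside 19.7% and 18.7% of all genes. Monocyte markers, Chil3 included, summed there to 2053 to 2071 CPM in KO 2 to 4 and 2303 and 2296 CPM in WT 3 and WT 4. Of these 10 markers, 3 were called higher in KO and 2 lower. Neutrophil markers there summed to 39.0 to 41.0 CPM in KO 2 to 4 and 78.9 and 77.2 CPM in WT 3 and WT 4, with Elane at 0 in every library, and dendritic cell markers to 125 to 135 CPM in KO 2 to 4 and 87.0 and 87.8 CPM in WT 3 and WT 4. The part that any of these cells has in the results below was not tested. Counts of members are therefore given over all 8 libraries (genotype only), with the set as a term in the fit, and within the other 5, and single genes mostly with the set as a term. The lung-rich set has 1 KO library, so its values stand without a count of calls.

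With the library set in the fit, 19 of the 32 G2/M genes rose in KO macrophages, and 1 of the 17 S-phase genes did. Without KO 1, the same fit called 24 G2/M and 9 S-phase genes, beside 2047 of 12767 tested genes higher and 1946 lower. Without any other single library it called 0 or 1 S-phase genes. With genotype only, 1 of 49 members passed an adjusted p of 0.05 in the edgeR quasi-likelihood test and it was higher in KO (Kif23), where 0.196% of all 12750 tested genes were called higher and 0.102% lower. At an unadjusted p under 0.05 there were 29 of 49 members and 1328 of all tested genes. Once the set was in the fit, 20 of 49 members were higher in KO and 0 lower, beside 8.59% of all tested genes called higher and 7.89% lower. The S-phase gene was Rrm2, and the G2/M genes were led by Kif23, Ect2, Cdc20 and Prc1 in the size of the change. Leaving out 1 library at a time, the count of 20 became 33 without KO 1, 8 without KO 2, 8 without KO 3 and 5 without KO 4. It was 16 without WT 1, 20 without WT 2, 4 without WT 3 and 3 without WT 4. Calls over all tested genes moved too. The number called higher ranged from 307 without WT 3 to 2047 without KO 1, beside 1095 with all 8 libraries. Kif23, Prc1 and Stmn1 passed in all 8 of these fits, Tpx2 in 7, Anln in 6, Ect2 and Cenpf in 5, and Ccna2 and Smc4 in 4. Ccnb2, Cdc20, Bub1, Cdca8 and Kif15 passed in 3 of the 8, and Rrm2, Aurkb, Kif11, Kif4, Top2a and Smc2 in 2. Of the pairs of libraries within a genotype, WT 3 and WT 4 were the most alike, closely followed by KO 3 and KO 4. With the counts of WT 3 and WT 4 summed into 1 library, 4 members passed (Tpx2, Kif23, Prc1 and Stmn1). Of all 13472 genes tested then, 318 were called higher. Fold changes below are log2 values, KO over WT, also where given in parentheses, and come from the fit with the set as a term unless another is named.

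**Figure D1:**
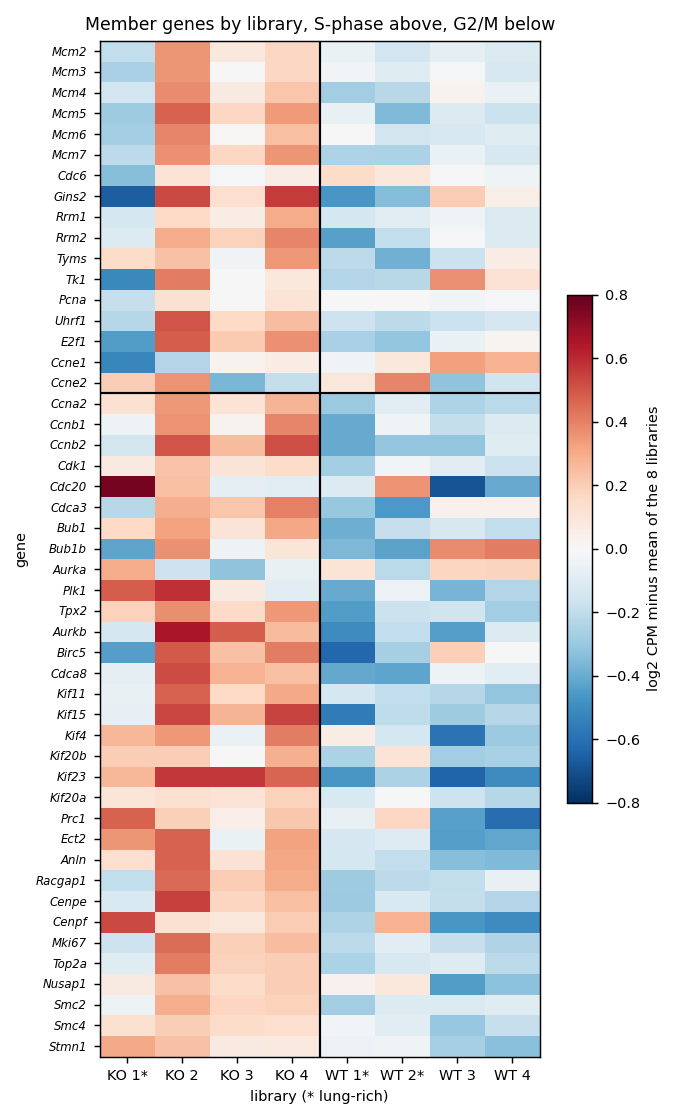
Log2 CPM of each of the 49 members minus that gene's mean over the 8 libraries, with KO libraries on the left, WT libraries on the right, S-phase genes above the line and G2/M genes below it; colours run from -0.8 to 0.8 and asterisks mark the lung-rich libraries. G2/M rows are mostly red in the 4 KO columns, while the S-phase rows of KO 1 are mostly blue.

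**Figure D2:**
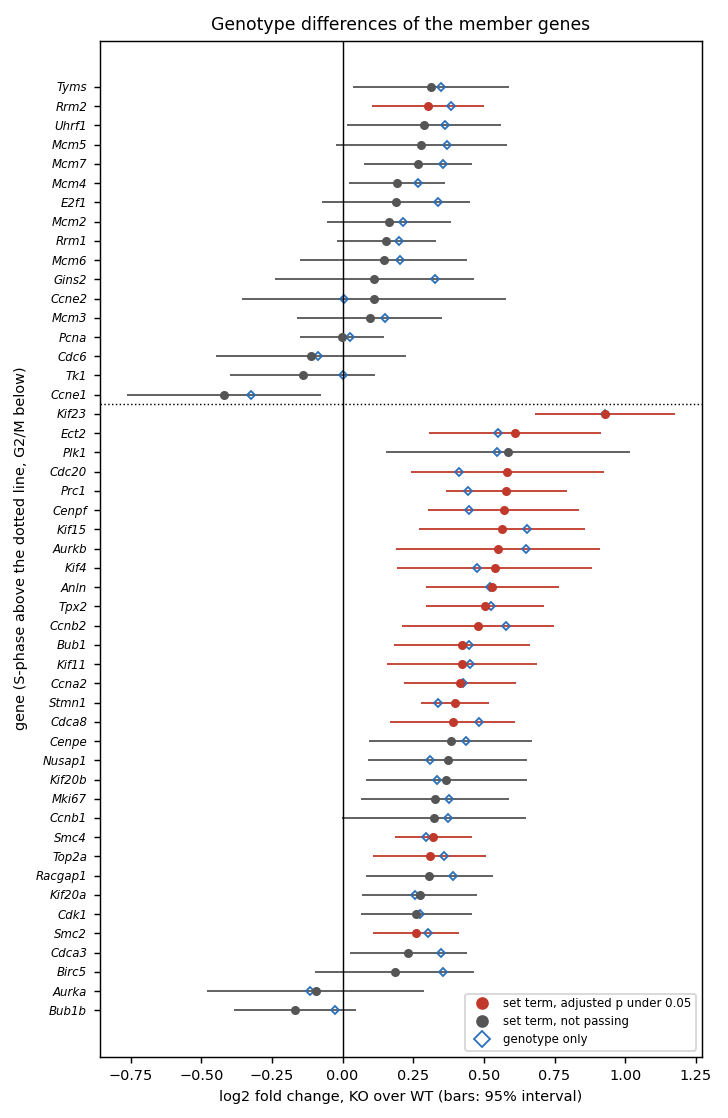
Log2 fold change of each member, KO over WT, with the library set as a term (filled points with 95% intervals, red where the adjusted p is under 0.05) and with genotype only (open diamonds), S-phase genes above the dotted line. Of the 20 red points 19 lie in the G2/M part, and Kif23 is farthest from 0 at 0.93.

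The summed level of all members was 1314, 1761, 1505 and 1625 CPM in KO 1 to 4, against 1243, 1278, 1275 and 1256 CPM in WT 1 to 4. The 4 WT libraries lay within a narrow band and every KO library lay above it, KO 1 least. The mean was 1551 ± 190 CPM in KO and 1263 ± 16.6 CPM in WT (SD, n = 4 each). In bulk RNA a larger share of cycling cells and more of these transcripts per cell cannot be told apart, which touches every result below. These sums weight genes with high CPM, such as Mki67 and Pcna, most.

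The wave of transcription that a member belongs to is partly written in its promoter. As a description, 3 short motifs were searched on both strands in the 250 bases before each start in RefSeq promoters of GRCm38.p6. They were the CHR element of late cell-cycle promoters (TTTGAA or TTCGAA), the CCAAT box bound by NF-Y, and the E2F site (TTTCCCGC, TTTCGCGC, TTTGCCGC or TTTGGCGC). Of the 49 members 40 have a promoter there. Mcm4, Ccna2, Stmn1, Kif20a, Gins2, Ccne2, Tpx2, Aurkb and Smc4 do not. The CHR letters were in 11 of 26 G2/M promoters (42.3%) and 2 of 14 S-phase promoters (14.3%), where 19.6% of all 27025 genes with a promoter had them. CCAAT was in 21 G2/M promoters (80.8%) and 9 S-phase promoters (64.3%), beside 37.5% of all genes. E2F letters were in 2 G2/M promoters (7.69%) and 5 S-phase promoters (35.7%), beside 2.16% of all genes. Within the G2/M genes, the CHR letters were in 8 of the 14 that rose with the set as a term and had a promoter (57.1%), and in 3 of the 12 that did not pass (25%).

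The promoters of 3 S-phase genes and 3 G2/M genes with the smallest p-values that have an entry are shown first, then Ect2 and Ccnb2, added because they rose and hold both CHR and CCAAT. Each is 250 bases read 5′ to 3′ on the gene's strand, ending at the base before the start, with motif matches in capitals. Mcm7, Prc1 and Ect2 have 2 promoter entries each, and the entry with the most matches is shown. Rrm2 (chr12:24708004-24708253, plus strand) has a CCAAT box that begins 50 bases before the start. Mcm7 (chr5:138171884-138172133, minus strand) has CHR letters at -173, an E2F site at -165 and CCAAT at -72 and -26. Ccne1 (chr7:38107491-38107740, minus strand) has none of the letters searched in this window. Kif23 (chr9:61946800-61947049, minus strand) has a CCAAT at -7 and Prc1 (chr7:80294226-80294475, plus strand) a CCAAT at -62 and CHR letters at -30. Anln (chr9:22389207-22389456, minus strand) has none of them in this window. Ect2 (chr3:27153855-27154104, minus strand) has CHR letters at -138 and CCAAT at -120, -79 and -23. Ccnb2 (chr9:70421555-70421804, minus strand) has CHR letters at -167 and CCAAT at -87, -54 and -21. A match is a description of the letters and not a site of binding.
Rrm2: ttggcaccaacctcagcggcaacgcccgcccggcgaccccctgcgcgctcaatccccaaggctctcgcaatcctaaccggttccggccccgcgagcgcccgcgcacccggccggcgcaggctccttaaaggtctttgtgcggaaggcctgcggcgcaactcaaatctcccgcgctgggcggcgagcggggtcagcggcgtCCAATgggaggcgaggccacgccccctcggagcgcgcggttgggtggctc
Mcm7: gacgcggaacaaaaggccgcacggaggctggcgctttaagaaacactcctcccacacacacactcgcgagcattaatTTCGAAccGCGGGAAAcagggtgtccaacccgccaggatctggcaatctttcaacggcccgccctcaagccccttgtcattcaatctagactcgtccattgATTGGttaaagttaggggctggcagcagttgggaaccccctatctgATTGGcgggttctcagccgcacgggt
Ccne1: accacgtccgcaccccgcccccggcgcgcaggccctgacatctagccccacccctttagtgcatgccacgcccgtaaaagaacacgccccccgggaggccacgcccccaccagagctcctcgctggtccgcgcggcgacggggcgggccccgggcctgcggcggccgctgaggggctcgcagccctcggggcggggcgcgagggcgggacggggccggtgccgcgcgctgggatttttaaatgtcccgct
Kif23: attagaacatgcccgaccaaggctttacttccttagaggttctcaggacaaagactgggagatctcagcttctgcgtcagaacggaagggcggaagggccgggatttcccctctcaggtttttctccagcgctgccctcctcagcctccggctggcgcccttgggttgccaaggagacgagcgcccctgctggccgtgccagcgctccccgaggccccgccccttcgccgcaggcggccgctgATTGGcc
Prc1: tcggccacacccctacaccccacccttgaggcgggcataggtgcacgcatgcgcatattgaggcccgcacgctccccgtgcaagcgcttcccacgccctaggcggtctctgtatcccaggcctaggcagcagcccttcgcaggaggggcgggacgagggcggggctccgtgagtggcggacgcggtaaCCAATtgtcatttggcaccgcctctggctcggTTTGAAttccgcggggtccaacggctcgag
Anln: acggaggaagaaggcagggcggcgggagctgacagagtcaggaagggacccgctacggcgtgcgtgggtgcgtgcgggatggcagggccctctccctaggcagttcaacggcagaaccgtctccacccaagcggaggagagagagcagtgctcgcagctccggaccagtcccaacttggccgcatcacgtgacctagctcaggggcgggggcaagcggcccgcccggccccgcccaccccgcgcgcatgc
Ect2: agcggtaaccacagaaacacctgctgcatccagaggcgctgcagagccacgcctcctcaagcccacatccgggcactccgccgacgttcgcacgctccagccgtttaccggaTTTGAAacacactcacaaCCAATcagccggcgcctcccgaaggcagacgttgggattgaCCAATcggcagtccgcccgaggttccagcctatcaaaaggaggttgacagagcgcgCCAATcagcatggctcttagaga
Ccnb2: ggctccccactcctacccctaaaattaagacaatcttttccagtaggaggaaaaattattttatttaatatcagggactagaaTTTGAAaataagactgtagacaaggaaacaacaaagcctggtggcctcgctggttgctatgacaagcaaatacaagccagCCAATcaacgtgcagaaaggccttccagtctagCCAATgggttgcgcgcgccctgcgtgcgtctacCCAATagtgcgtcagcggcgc

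Among S-phase genes, those of origin licensing and the replicative helicase (Mcm2 to Mcm7, Cdc6 and Gins2) did not pass over all 8 libraries, with or without the set as a term. Mcm5, a subunit of the MCM ring that unwinds DNA, was at 35.1, 59.3, 48.0 and 54.3 CPM in KO 1 to 4, against 41.0, 33.6, 39.7 and 37.9 CPM in WT 1 to 4. KO 2 to 4 lay above every WT library and KO 1 lay among them. With the set as a term the log2 fold change was 0.28 ± 0.13 (SE, adjusted p = 0.196). Mcm6, another subunit of the ring, was at 52.5, 83.2, 63.9 and 75.2 CPM in KO 1 to 4, against 63.7, 57.4, 58.1 and 59.5 CPM in WT 1 to 4, with KO 1 the lowest of the 8. The same shape, KO 2 to 4 above WT 3 and WT 4 and KO 1 not above both lung-rich WT libraries, held for Mcm2 and Mcm3. Mcm4 and Mcm7 were the exceptions in the ring, with KO 1 above WT 1 and WT 2. Gins2, of the GINS complex that completes the active helicase, ranged from 5.26 to 12.3 CPM in KO and 6.03 to 9.59 CPM in WT (0.11, adjusted p = 0.663). Cdc6, which loads the ring on origins, ranged from 3.21 to 4.37 CPM in KO and 3.97 to 4.50 CPM in WT, with a log2 fold change of -0.11 ± 0.15 (SE, adjusted p = 0.646).

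Nucleotide supply gave the single S-phase gene called with the set as a term. Rrm2, the regulated small subunit of ribonucleotide reductase, was at 15.7, 20.8, 19.2 and 22.2 CPM in KO 1 to 4, against 12.5, 14.8, 16.8 and 15.61 CPM in WT 1 to 4. KO 1 lay below WT 3, so the genotypes overlap, but KO was above WT within each set. The log2 fold change of Rrm2 was 0.30 ± 0.09 (SE, adjusted p = 0.0465), a call held in 2 of the 8 fits that leave out a library. Rrm1, the large subunit of the same enzyme, was at 50.8, 62.4, 58.3 and 68.6 CPM in KO 1 to 4, against 50.6, 52.7, 54.4 and 51.4 CPM in WT 1 to 4, with KO 1 among the WT libraries and a log2 fold change of 0.16 ± 0.08 (SE, adjusted p = 0.210). Thymidylate synthase Tyms ranged from 8.11 to 10.5 CPM in KO and 6.32 to 8.61 CPM in WT (0.31, adjusted p = 0.119). Thymidine kinase Tk1 ranged from 13.7 to 26.0 CPM in KO and 16.6 to 25.1 CPM in WT (-0.14, adjusted p = 0.437).

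None of the clamp, chromatin and E2F genes passed over all 8 libraries, while Uhrf1 and E2f1 passed within the other 5. Pcna, which holds DNA polymerase on the template, was at 145, 179, 165 and 178 CPM in KO 1 to 4, against 165, 165, 162 and 163 CPM in WT 1 to 4. The 4 WT libraries spanned 162 to 165 CPM, with KO 1 below all of them and KO 2 to 4 above, KO 3 by little. Its log2 fold change with the set as a term was -0.00198 ± 0.06 (SE, adjusted p = 0.989), with a 95% interval of -0.15 to 0.15. Uhrf1, which guides maintenance of DNA methylation behind the fork, ranged from 23.6 to 39.2 CPM in KO and 23.9 to 25.2 CPM in WT (0.29, adjusted p = 0.139), and within the other 5 its log2 fold change was 0.47 ± 0.09 (SE, adjusted p = 0.000682). E2f1, an activating E2F factor and itself a target of E2F, ranged from 21.3 to 40.7 CPM in KO and 23.4 to 29.6 CPM in WT (0.19, adjusted p = 0.305), and within the other 5 it was 0.37 ± 0.08 (SE, adjusted p = 0.000586).

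The cyclins E, partners of Cdk2 at the entry into S phase, did not pass in any fit over 5 or 8 libraries. Ccne1 was at 2.02, 2.46, 2.96 and 3.02 CPM in KO 1 to 4, against 2.84, 3.07, 3.64 and 3.52 CPM in WT 1 to 4. KO libraries were the lower ones within each set, although KO 3 and KO 4 reached the level of WT 1 and WT 2. Its log2 fold change with the set as a term was -0.42 ± 0.15 (SE, adjusted p = 0.0952), the lowest of the 49 members, and it did not pass. Ccne2 was at 3.31, 3.71, 2.24 and 2.53 CPM in KO 1 to 4, against 3.08, 3.78, 2.31 and 2.59 CPM in WT 1 to 4. Its genotypes overlapped throughout, the 95% interval with the set as a term was -0.36 to 0.58 and no difference was detectable at this depth.

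**Figure D3:**
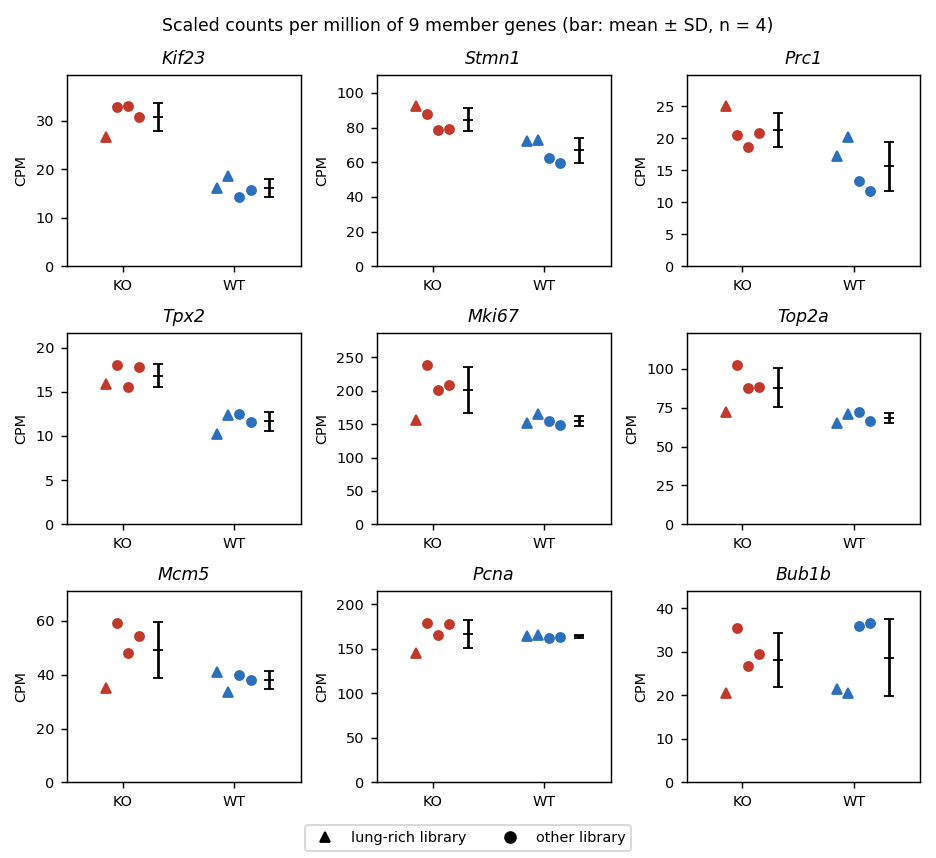
CPM of 9 members in each library, KO on the left in red and WT on the right in blue, with triangles for lung-rich and circles for other libraries; bars are mean ± SD (n = 4 libraries). Kif23, Stmn1, Tpx2 and Top2a do not overlap between the genotypes, Prc1 does, and for Mki67, Mcm5 and Pcna the KO triangle lies apart from the KO circles.

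Of the cyclins A and B with their kinase, Ccna2 and Ccnb2 rose. Ccna2, cyclin A2, which acts from S phase into early mitosis, was at 17.7, 20.7, 17.5 and 19.6 CPM in KO 1 to 4, against 13.2, 15.3, 13.7 and 14.0 CPM in WT 1 to 4. Every KO library was above every WT library. With the set as a term its log2 fold change was 0.42 ± 0.09 (SE, adjusted p = 0.0150). Ccnb2, a B-type cyclin of mitosis, was at 10.9, 17.1, 14.4 and 17.2 CPM in KO 1 to 4, against 9.11, 9.75, 9.69 and 11.3 CPM in WT 1 to 4, and its lowest KO library, KO 1, lay below WT 4. The log2 fold change of Ccnb2 was 0.48 ± 0.12 (SE, adjusted p = 0.0277). Ccnb1, the cyclin that drives entry into mitosis with Cdk1, was at 6.08, 8.04, 6.37 and 8.19 CPM in KO 1 to 4, against 4.73, 6.15, 5.49 and 5.79 CPM in WT 1 to 4. KO 1 lay just under WT 2, and the fold change of 0.32 ± 0.14 (SE, adjusted p = 0.166) did not pass. Cdk1, the mitotic kinase itself, was at 12.2, 13.7, 12.5 and 12.9 CPM in KO 1 to 4, against 9.64, 11.5, 11 and 10.3 CPM in WT 1 to 4. KO was above WT without overlap, by a log2 fold change of 0.26 ± 0.09 (SE, adjusted p = 0.0754), which did not pass.

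Of the 4 genes of the spindle checkpoint and anaphase promotion, 2 rose with the set as a term. Bub1, a checkpoint kinase at the kinetochore, ranged from 7.34 to 8.54 CPM in KO and 5.21 to 6.26 CPM in WT, without overlap (0.42, adjusted p = 0.0293). Cdc20, the activator of the anaphase-promoting complex, ranged from 5.83 to 10.5 CPM in KO and 3.85 to 7.95 CPM in WT (0.58, adjusted p = 0.0320) and was highest in KO 1. Bub1b, the checkpoint protein BubR1, was the exception, at 20.6, 35.5, 26.9 and 29.5 CPM in KO 1 to 4, against 21.5, 20.6, 35.9 and 36.7 CPM in WT 1 to 4. It followed the library sets, lying at 20.6 to 21.5 CPM in the lung-rich libraries and 26.9 to 36.7 CPM in the others, with KO 2 to 4 below WT 3 and WT 4. Its log2 fold change between genotypes was -0.17 ± 0.09 (SE, adjusted p = 0.268). Cdca3, which helps to degrade the mitotic brake Wee1, ranged from 7.51 to 11.5 CPM in KO and 6.37 to 8.98 CPM in WT and did not pass (0.23, adjusted p = 0.121).

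Of the 6 mitotic kinases and partners, 3 rose with the set as a term. Tpx2, which targets Aurora A to the spindle, was at 15.9, 18.1, 15.5 and 17.8 CPM in KO 1 to 4, against 10.2, 12.4, 12.5 and 11.5 CPM in WT 1 to 4. The lowest KO library was well above the highest WT library, and the log2 fold change was 0.50 ± 0.09 (SE, adjusted p = 0.00921). Cdca8, the chromosomal passenger protein borealin, was at 8.33, 12.6, 10.7 and 10.4 CPM in KO 1 to 4, against 6.62, 6.59, 8.57 and 8.30 CPM in WT 1 to 4. KO 1 lay below WT 3, and KO was above WT within each set, with a log2 fold change of 0.39 ± 0.10 (SE, adjusted p = 0.0285). Aurkb, Aurora B, the kinase of the same passenger complex, ranged from 9.29 to 16.1 CPM in KO and 7.22 to 9.42 CPM in WT (0.55, adjusted p = 0.0484). Birc5, survivin, the remaining passenger subunit among the members, ranged from 7.34 to 14.0 CPM in KO and 6.45 to 11.4 CPM in WT and did not pass (0.18, adjusted p = 0.350). Plk1, the Polo-like kinase, was at 3.24 to 5.17 CPM in KO and 2.60 to 3.34 CPM in WT, with a log2 fold change of 0.59 ± 0.19 (SE, adjusted p = 0.0702) that did not pass. Aurka, Aurora A, the kinase that Tpx2 binds, was at 4.08 to 6.25 CPM in KO and 4.39 to 5.77 CPM in WT (-0.10, adjusted p = 0.739).

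Of the 4 kinesins of the spindle and chromosomes, 3 rose with the set as a term. Kif15, a plus-end motor that backs up Kif11 in holding the spindle poles apart, was at 10.4, 15.7, 13.2 and 15.8 CPM in KO 1 to 4, against 7.39, 9.44, 8.92 and 9.31 CPM in WT 1 to 4. The genotypes did not overlap, and the log2 fold change was 0.56 ± 0.13 (SE, adjusted p = 0.0209). Kif11, Eg5, the main motor that separates the poles, was at 17.5, 25.3, 20.3 and 22.5 CPM in KO 1 to 4, against 16.5, 15.9, 15.5 and 14.7 CPM in WT 1 to 4. KO 1 exceeded the highest WT library, WT 1, by little, KO 2 to 4 by more, and the log2 fold change was 0.42 ± 0.12 (SE, adjusted p = 0.0409). The chromokinesin Kif4 ranged from 7.44 to 10.2 CPM in KO and 5.13 to 8.04 CPM in WT (0.54, adjusted p = 0.0436). Kif20b ranged from 6.78 to 8.25 CPM in KO and 5.59 to 7.29 CPM in WT and did not pass (0.37, adjusted p = 0.0820).

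Cytokinesis held the largest difference of any member. Kif23, MKLP1, the motor subunit of the centralspindlin complex that bundles the midzone, was at 26.7, 32.9, 32.9 and 30.7 CPM in KO 1 to 4, against 16.1, 18.6, 14.3 and 15.7 CPM in WT 1 to 4. The lowest KO library, KO 1, was above the highest WT library, WT 2, and the mean was 30.8 ± 2.93 CPM in KO and 16.2 ± 1.81 CPM in WT (SD, n = 4 each). With genotype only, the log2 fold change was 0.93 ± 0.11 (SE, adjusted p = 0.0289). Leaving out any 1 library other than KO 1 took that adjusted p above 0.05 (0.0853 to 0.216) while the fold change stayed between 0.88 and 1.00. In each of those fits 0 of all tested genes were called, so the loss of the call is not particular to Kif23. With the set as a term the log2 fold change of Kif23 was 0.93 ± 0.11 (SE, adjusted p = 0.00145). Racgap1, the partner of Kif23 in centralspindlin, was at 23.9, 37.5, 31.5 and 33.7 CPM in KO 1 to 4, against 22.5, 23.7, 23.9 and 26.3 CPM in WT 1 to 4. KO 1 lay among the WT libraries, and the log2 fold change of 0.31 ± 0.10 (SE, adjusted p = 0.0683) did not pass.

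Prc1, which cross-links antiparallel microtubules of the midzone, was at 25, 20.6, 18.7 and 20.9 CPM in KO 1 to 4, against 17.3, 20.2, 13.3 and 11.8 CPM in WT 1 to 4. KO was above WT within each set, but WT 2 lay above KO 3. The log2 fold change of Prc1 was 0.44 ± 0.18 (SE, adjusted p = 0.448) with genotype only and 0.58 ± 0.09 (SE, adjusted p = 0.00571) with the set as a term. Ect2, the exchange factor that switches on RhoA at the cell equator, was at 9.92, 10.8, 7.49 and 9.73 CPM in KO 1 to 4, against 7.10, 7.25, 5.74 and 5.82 CPM in WT 1 to 4. No WT library reached the lowest KO library, KO 3, and the log2 fold change was 0.61 ± 0.13 (SE, adjusted p = 0.0177). Anln, anillin, a scaffold of the contractile ring, was at 24.9, 31.4, 24.5 and 28.0 CPM in KO 1 to 4, against 20.5, 19.8, 17.8 and 17.7 CPM in WT 1 to 4. The genotypes were well apart, with a log2 fold change of 0.53 ± 0.10 (SE, adjusted p = 0.0117). Kif20a, a further midzone kinesin, was at 9.22 to 9.79 CPM in KO and 7.34 to 8.61 CPM in WT, without overlap, and did not pass (0.27, adjusted p = 0.0740).

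At the kinetochore, Cenpf rose and Cenpe did not pass. Cenpf, a large protein of the outer kinetochore, was at 18.8, 14.2, 13.9 and 15 CPM in KO 1 to 4, against 11, 15.8, 9.44 and 9.23 CPM in WT 1 to 4. It was higher in KO within each set, and WT 2 lay above KO 2, KO 3 and KO 4. Its log2 fold change with the set as a term was 0.57 ± 0.12 (SE, adjusted p = 0.0140). Cenpe, the kinetochore kinesin that aligns chromosomes, was at 17.2, 27.3, 21.0 and 22.0 CPM in KO 1 to 4, against 15.3, 17.2, 16.3 and 15.8 CPM in WT 1 to 4. KO 1 lay just under WT 2 while KO 2 to 4 were above every WT library, and the log2 fold change was 0.38 ± 0.13 (SE, adjusted p = 0.0749).

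Of the 5 genes of chromosome structure, 3 rose with the set as a term. Mki67, which encodes the proliferation marker Ki-67 that coats mitotic chromosomes, was at 157, 239, 200 and 208 CPM in KO 1 to 4, against 151, 165, 154 and 149 CPM in WT 1 to 4. KO 2 to 4 lay above all WT libraries and KO 1 among them, and the log2 fold change of 0.33 ± 0.11 (SE, adjusted p = 0.0902) did not pass. Top2a, the topoisomerase that untangles sister DNA, was at 72.1, 103, 87.7 and 88.5 CPM in KO 1 to 4, against 64.8, 70.6, 72.0 and 66.5 CPM in WT 1 to 4. KO 1 exceeded the highest WT library by little, and the log2 fold change was 0.31 ± 0.09 (SE, adjusted p = 0.0471). Smc4, a core subunit of condensin, was at 72.1, 75.9, 73.7 and 72.9 CPM in KO 1 to 4, against 65.4, 62.6, 53.8 and 58.4 CPM in WT 1 to 4. All KO libraries were above all WT libraries, by a log2 fold change of 0.32 ± 0.06 (SE, adjusted p = 0.0101). Smc2, its partner, was at 28.3 to 35.6 CPM in KO and 24 to 27.2 CPM in WT, without overlap (0.26, adjusted p = 0.0313). Nusap1, which binds microtubules near chromosomes, ranged from 11.2 to 12.5 CPM in KO and 7.80 to 11.3 CPM in WT and did not pass (0.37, adjusted p = 0.0754).

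Stmn1, stathmin, which destabilises microtubules until it is phosphorylated in mitosis, was at 92.2, 88.0, 78.8 and 79.0 CPM in KO 1 to 4, against 72.5, 73.0, 62.4 and 59.4 CPM in WT 1 to 4. Every KO library was above every WT library. Its log2 fold change was 0.34 ± 0.09 (SE, adjusted p = 0.220) with genotype only and 0.40 ± 0.05 (SE, adjusted p = 0.00253) with the set as a term, and the SE with the set was the smallest of the 49 members.

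Within the other 5 libraries (KO 2 to 4 and WT 3 and WT 4), 36 of 49 members were called higher in KO and 0 lower, beside 19.7% and 18.7% of the 12624 genes tested there. They were 28 of the 32 G2/M genes and 8 of the 17 S-phase genes (Mcm2, Mcm4, Mcm5, Mcm7, Rrm1, Rrm2, Uhrf1 and E2f1). The G2/M genes that did not pass here were Cdca3, Bub1b, Aurka and Plk1. The median log2 fold change was 0.50 over G2/M genes and 0.26 over S-phase genes, against -0.00195 over all tested genes. All 3 KO libraries lay above both WT libraries for 30 G2/M and 11 S-phase genes, where 29% of the genes of the 8-library test did so. Ccne1, Bub1b and Aurka lay below, as did 30.2% of those genes. Kif23 had a log2 fold change of 1.10 ± 0.08 (SE, adjusted p = 1.09e-09) here, Mki67 of 0.52 ± 0.08 (SE, adjusted p = 0.00347) and Mcm5 of 0.48 ± 0.08 (SE, adjusted p = 0.000204). The median chi-square of the counts of WT 3 and WT 4 was 1.87 times that of counting noise, so these p-values rest on a small spread.

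Within the lung-rich libraries the medians of S-phase and G2/M genes had opposite signs. KO 1 lay above both WT 1 and WT 2 for 26 of 32 G2/M genes and below both for 0, while it lay above both for 4 S-phase genes and below both for 10 of 17. Of all tested genes, 46.4% lay above both and 32.8% below both. The median log2 fold change was 0.17 over G2/M genes and -0.16 over S-phase genes, against -2.05e-04 over all genes tested there. Plk1 (0.62), Kif23 (0.55) and Cdc20 (0.55) had the highest log2 fold changes of members here, and Ccne1 (-0.62) and Cdc6 (-0.52) the lowest. Summed epithelial and endothelial markers were higher in KO 1 than in either lung-rich WT library, and their part in these values was not tested.

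**Figure D4:**
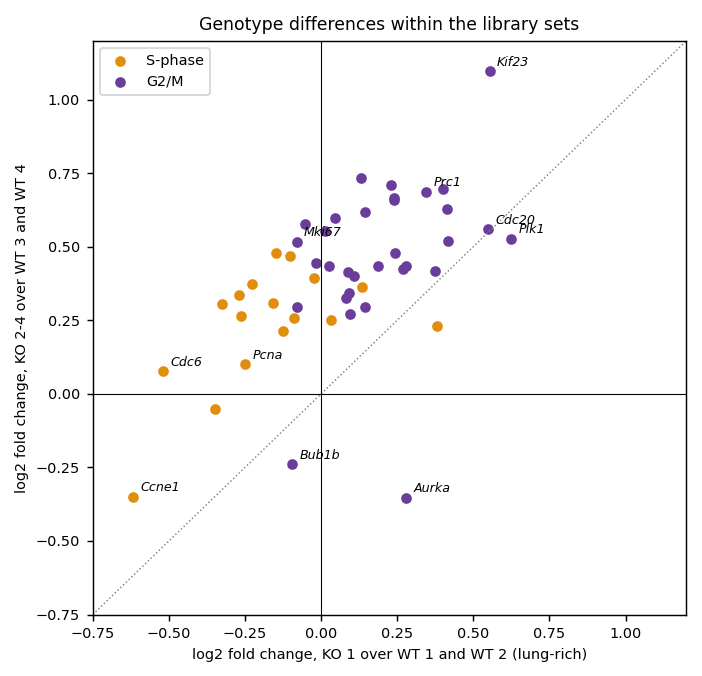
Log2 fold change of each member within the other 5 libraries (KO 2 to 4 over WT 3 and WT 4, vertical) against that within the lung-rich libraries (KO 1 over WT 1 and WT 2, horizontal), orange for S-phase and purple for G2/M; the dotted line marks equal values. Most points lie above the line, and most S-phase points lie left of 0, whereas most G2/M points lie right of it.

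In the edgeR test of the genotype by set term, 5 of 49 members were called lower (a smaller or more negative KO over WT difference in the lung-rich set) and 0 higher, beside 10.1% of all tested genes called lower and 8.84% higher. The share of members called lower is that of genes in general. That term, on the log2 scale, was -0.53 ± 0.13 (SE, adjusted p = 0.0178) for Mki67, -0.53 ± 0.14 (SE, adjusted p = 0.0264) for E2f1 and -0.28 ± 0.08 (SE, adjusted p = 0.0290) for Pcna. For Nusap1 it was -0.56 ± 0.17 (SE, adjusted p = 0.0423) and for Kif23 -0.48 ± 0.15 (SE, adjusted p = 0.0427). The term rests on KO 1 alone in its arm, which is assumed to vary like the other libraries, and KO 1 also had the highest epithelial and endothelial and the lowest interstitial macrophage marker sums.

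Between the sets, genotype held equal, no larger a share of members than of all genes was called. In lung-rich over other libraries, 4 members were called higher (Cdc20, Prc1, Cenpf and Stmn1) and 12 lower, beside 30.9% and 27.6% of all tested genes. The 12 were Mcm4, Mcm7, Gins2, Rrm2, Tk1, E2f1, Ccnb2, Cdca3, Bub1b, Birc5, Cdca8 and Racgap1, of which 6 are S-phase genes. Gins2 (-0.76 ± 0.16 SE, adjusted p = 0.00386) and Bub1b (-0.70 ± 0.10 SE, adjusted p = 0.000412) were the lowest, and Cdc20 (0.70 ± 0.15 SE, adjusted p = 0.00402) was the highest on this log2 scale.

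**Figure D5:**
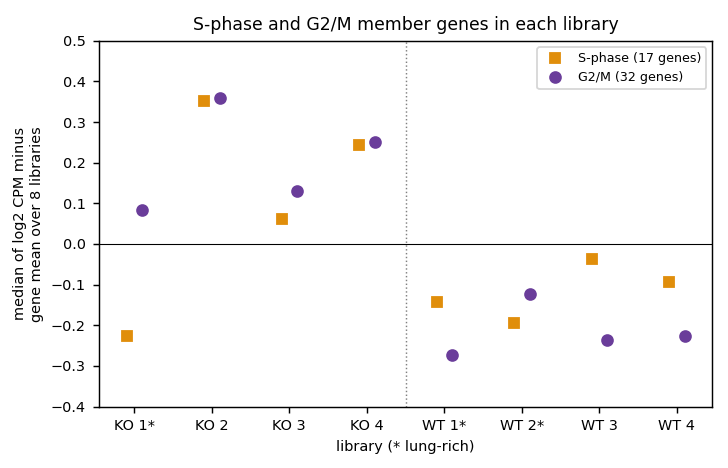
Median over the 17 S-phase genes (squares) and over the 32 G2/M genes (circles) of log2 CPM minus the gene's mean, in each library, with KO on the left and asterisks on the lung-rich libraries. The G2/M medians are between 0.08 and 0.36 in KO libraries and between -0.27 and -0.12 in WT libraries, while the S-phase median of KO 1 (-0.23) is the lowest of the 8.

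Over all 8 libraries, the genotypes were apart for some G2/M genes and for no S-phase gene. All KO libraries lay above all WT libraries for 14 of 32 G2/M genes and 0 of 17 S-phase genes, and none lay wholly below, beside 4.19% of all tested genes above and 2.71% below. With genotype only, the median log2 fold change was 0.42 over G2/M genes, 0.21 over S-phase genes and -0.01 over all tested genes. With the set as a term these medians were 0.39, 0.16 and 0.03. The summed G2/M level was 778, 989, 853 and 895 CPM in KO 1 to 4, against 659, 708, 664 and 660 CPM in WT 1 to 4, without overlap. The summed S-phase level was 535, 772, 652 and 729 CPM in KO 1 to 4, against 584, 570, 611 and 596 CPM in WT 1 to 4. KO 1 was thus the lowest library for the S-phase sum, and KO 2 to 4 were the highest. The G2/M sum divided by the S-phase sum was 1.45, 1.28, 1.31 and 1.23 in KO 1 to 4, against 1.13, 1.24, 1.09 and 1.11 in WT 1 to 4. KO 4 lay just below WT 2 in this ratio and the other KO libraries above all WT libraries.

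Other genes of the cycle, from lists that share no gene with the 49, were read in the same fits. With the set as a term, 8.59% of all tested genes were called higher and 7.89% lower, and within the other 5 libraries 19.7% and 18.7%. These shares stand beside every count of this and the following paragraphs on other lists. Of 50 other S-phase genes, 3 were higher in KO and 0 lower, a share under that of all genes, with a median log2 fold change of 0.15. Pola2, the accessory subunit of polymerase alpha, had a log2 fold change of 0.39 ± 0.07 (SE, adjusted p = 0.0105), its catalytic subunit Pola1 one of 0.34 ± 0.07 (SE, adjusted p = 0.0129) and the polymerase delta subunit Pold1 one of 0.30 ± 0.08 (SE, adjusted p = 0.0308). Of 70 tested other mitosis genes, 24 were higher and 4 lower, with a median of 0.32. Pimreg, a regulator of the metaphase to anaphase transition, rose (0.91 ± 0.15 SE, adjusted p = 0.00622), and so did Cdc25b, a phosphatase that activates Cdk1 (0.66 ± 0.10 SE, adjusted p = 0.00386). The 4 that fell included the histone variant gene H2afz (-0.46 ± 0.05 SE, adjusted p = 0.000782) and the condensin II subunit gene Ncapg2 (-0.60 ± 0.06 SE, adjusted p = 0.000782). The others were the lamin gene Lmnb1 (-0.45, adjusted p = 0.00637) and Cks2 (-0.28, adjusted p = 0.0354), a small partner of Cdk1. Within the other 5 libraries, 15 of the 50 other S-phase genes were higher and 0 lower, with a median of 0.21. Their median within the lung-rich 3 was -0.08. Of the other mitosis genes, 42 were higher and 3 lower within the other 5, with a median of 0.43.

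Of 19 cell-cycle transcription factors, 1 was higher and 1 lower with the set as a term, shares under those of all tested genes. Foxm1, the forkhead factor that activates G2/M genes, was at 17.1, 24.2, 20.9 and 22.7 CPM in KO 1 to 4, against 13.8, 14.0, 10.8 and 14.0 CPM in WT 1 to 4. It was higher in every KO library, with a log2 fold change of 0.66 ± 0.14 (SE, adjusted p = 0.0145) with the set as a term. Mybl2, which encodes B-Myb, did not pass (0.11 ± 0.15 SE, adjusted p = 0.673). It was at 4.79, 9.50, 6.88 and 9.13 CPM in KO 1 to 4, against 5.44, 5.27, 6.57 and 7.76 CPM in WT 1 to 4. Lin54, a DNA-binding subunit of the DREAM complex, was the one called lower (-0.52 ± 0.07 SE, adjusted p = 0.00311). Among 11 G1 cyclins and kinases, 3 were higher and 1 lower, the 3 all D-type cyclins. Ccnd3, with 0.59 ± 0.09 (SE, adjusted p = 0.00472), was at 84.2, 38.6, 52.8 and 45.0 CPM in KO 1 to 4, against 56.1, 58.6, 29.3 and 30.0 CPM in WT 1 to 4. All 3 D cyclins were also higher in lung-rich than in other libraries, by a log2 difference of 0.92 ± 0.09 (SE, adjusted p = 4.72e-05) for Ccnd3, 0.91 ± 0.09 (SE, adjusted p = 3.36e-05) for Ccnd2 and 0.52 ± 0.09 (SE, adjusted p = 0.00155) for Ccnd1. Mnat1, of the CDK-activating kinase, was lower (-0.35 ± 0.08 SE, adjusted p = 0.0204). Within the other 5 libraries, 5 of the 19 transcription factors were higher and 2 lower. Of the 11 G1 cyclins and kinases, 5 were higher there and 1 lower.

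Of 20 CDK inhibitors and other brakes, 4 were higher in KO with the set as a term and 2 lower. The antiproliferative gene Btg2 rose (0.39 ± 0.07 SE, adjusted p = 0.00905), as did the INK4 inhibitors Cdkn2d (0.50 ± 0.10 SE, adjusted p = 0.0129), Cdkn2c (0.54, adjusted p = 0.0221) and Cdkn2a (1.69, adjusted p = 0.0135). Cdkn2a was at 2.18, 1.21, 1.17 and 1.10 CPM in KO 1 to 4, against 0.946, 1.23, 0.154 and 0.253 CPM in WT 1 to 4, close to the floor in WT 3 and WT 4. Wee1, the kinase that restrains Cdk1, fell (-0.60, adjusted p = 0.0276), and so did Btg1 (-0.23, adjusted p = 0.0219). Within the other 5 libraries, 10 of the 20 brakes were higher in KO and 3 lower. Cdkn1a, Cdkn2b and Myc, textbook targets through which TGF-β slows the cycle, were named after their values were seen. Cdkn1a, which encodes p21, was at 541, 664, 658 and 643 CPM in KO 1 to 4, against 531, 609, 552 and 578 CPM in WT 1 to 4, with a log2 fold change of 0.11 ± 0.08 (SE, adjusted p = 0.366) that did not pass. Within the other 5 libraries Cdkn1a was higher in KO (0.22 ± 0.03 SE, adjusted p = 1.19e-05), and its log2 fold change within the lung-rich 3 was -0.14. Cdkn2b, which encodes p15, was high in the 3 lung-rich libraries, at 14.1, 0.958, 1.43 and 0.770 CPM in KO 1 to 4, against 11.4, 7.07, 0.718 and 0.956 CPM in WT 1 to 4. Myc was at 32.6, 65.1, 54.5 and 59.4 CPM in KO 1 to 4, against 49.4, 57.0, 52.7 and 49.8 CPM in WT 1 to 4, with a log2 fold change of -0.10 ± 0.18 (SE, adjusted p = 0.753). That value joins opposite ones, 0.23 ± 0.07 (SE, adjusted p = 0.0113) within the other 5 libraries and -0.77 within the lung-rich 3, where KO 1 was the lowest library. The genotype by set term for Myc was -0.93 ± 0.14 (SE, adjusted p = 0.00153).

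All 49 members are protein-coding genes in GENCODE M21 (GRCm38), and none overlaps another gene of the table on its own strand. For 11 of them a gene on the other strand overlaps (Mcm7, Gins2, Tk1, Ccne2, Ccna2, Cdc20, Cdca8, Kif4, Kif20a, Prc1 and Nusap1). No source used here gives the strand setting of the authors' counting, so reads of such pairs may not be told apart. The partners of called members did not pass with the set as a term. Rccd1, opposite Prc1, had a log2 fold change of 0.09 and Exosc9, opposite Ccna2, one of -0.18.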

How the data were processed

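Polyadenylated RNA of sorted lung macrophages was measured in 8 libraries (TRIzol, TruSeq Stranded mRNA kit, NovaSeq, per the labels). The authors deposited a merged table of salmon estimated counts, 1 value per gene and library, per its name and values not scaled for library size. Between 81.8% and 84.8% of a library's values were whole. The submitters' processing notes name GRCm38 and DESeq2 1.40.1. No source used here gives salmon's version, annotation or strand setting.

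After rounding, the fits were made in R 4.3.3 using edgeR 4.0.16 (filterByExpr with minimum count 10 and minimum total 15, TMM, robust quasi-likelihood F-test), limma 3.58.1 and, as an alternative, DESeq2 1.42.0. P-values were Benjamini-Hochberg adjusted over all tested genes, with a threshold of 0.05. All adjusted p-values in the text come from edgeR unless DESeq2 is named. Fits used all 8 libraries with genotype only or with library set as a term, the other 5, the lung-rich 3, and the genotype by set term. Log2 CPM had a prior count of 2. Intervals are at 95% and, for single counts, cover counting error only. The fits with genotype only and with the set as a term were also run on simulated counts with known changes. For genotype only, those counts were drawn without a difference between library sets. That run therefore does not show how the genotype-only fit behaves on these libraries. Alternatives were the scaling, the filter, the tool, the replicate block and left-out or summed libraries.

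The members, lists, library sets and rule for named genes were chosen with earlier results of these data known. The rule gives values in every library for members past the threshold with genotype only, the 12 with the smallest adjusted p with the set as a term, 8 textbook genes, and the highest member by CPM of each role. Of each other list it takes up to 4 genes, and other genes of those lists are named to complete a count. Promoters came from RefSeq.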

Additional observations from a re-analysis of the deposited data

Results flagged for a closer look

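In the edgeR quasi-likelihood test of the genotype by set term, 5 of 49 members had a lower KO over WT difference in the lung-rich libraries than in the others. Of all tested genes 10.1% were called lower in this test, so the share of members is that of genes in general. That difference, lung-rich minus other on the log2 scale, was -0.53 for Mki67 (adjusted p = 0.0178) and -0.53 for E2f1 (adjusted p = 0.0264). It was -0.28 for Pcna (adjusted p = 0.029), -0.56 for Nusap1 (adjusted p = 0.0423) and -0.48 for Kif23 (adjusted p = 0.0427). The lung-rich difference rests on KO 1 alone, which is assumed to vary like the other libraries, and epithelial and endothelial markers had higher sums in KO 1 than in either lung-rich WT library. Their part in these differences was not tested. Among the 27 members given in every library, Dixon's test at 95% flagged no single library against the other 3 of its genotype, over 54 groups. With 4 values per group and the library sets cutting across genotype, this test can hardly flag a library, so nothing is concluded from it. The median chi-square of the counts was 48 to 55.9 times that of counting noise between KO 1 and KO 2 to 4. Among KO 2 to 4 that ratio was 2.06 to 3.07, and between WT libraries of different sets it was 22.8 to 36.3.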

How the results depend on the processing

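The members called with genotype only (1) became 10 with DESeq2, 0 with the replicate block, 20 with the library set as a term and 36 within the other 5 libraries, and 0 to 17 when 1 library was left out, 17 without KO 1. Calls over all tested genes moved with these counts. With genotype only, 25 were higher and 13 lower, against 347 and 180 with DESeq2 and 619 and 241 without KO 1. With the replicate block, or without any other single library, 0 of all tested genes were called. With the set as a term 1095 were higher and 1006 lower, and within the other 5 libraries 2493 and 2363. The count with the set as a term (20) ranged from 3 to 33 when 1 library was left out. It was 4 with WT 3 and WT 4 summed, and 0 when KO 4 was left out as well. Of all tested genes, 318 and 70 were called higher in these fits, beside 1095 in the main fit. Scaling, filter and tool left the count of members at 14 to 24, while 934 to 1351 of all tested genes were called higher. The median log2 fold change within the lung-rich libraries was -0.16 over S-phase genes and 0.17 over G2/M genes. Same-numbered libraries had correlations of 0.867, -0.794, 0.694 and 0.753 for numbers 1 to 4, after the mean of each genotype was taken off. The sign was that of shared or different library sets, so these values cannot show whether the libraries were paired. The scaling alternatives moved the median of all genes by less than 0.1.

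Fold changes that changed sign with genotype only were Ccne2 (-0.00102 with DESeq2 size factors in edgeR, -0.024 by library totals) and Pcna (-0.00569 by library totals, -0.00198 with the set as a term). Leaving out 1 library, they ranged from -0.14 to 0.15 for Ccne2, from -0.17 to 0.12 for Bub1b and from -0.018 to 0.087 for Pcna. Within the lung-rich libraries they were -0.081 for Mki67, -0.15 for Mcm5, -0.25 for Pcna, -0.27 for Mcm6, -0.091 for Rrm1, -0.12 for Ccne2 and -0.016 for Racgap1. With the set as a term, Pcna was 0.024 by library totals and -0.068 to 0.097 without 1 library, and Ccne2 -0.074 to 0.21. The cause was not tested. Depth limits Ccne2, Plk1 and Ccne1 most, whose counts are the lowest of the members.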
